A study of Mus musculus with 142 samples.

Results

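Connexins are the proteins of gap junctions, and 9 connexin genes of glia, neurons and vessels were followed here in cultured mouse oligodendrocyte precursor cells (OPCs). They were Gja1, Gja4, Gja5, Gjb1, Gjb2, Gjb6, Gjc1, Gjc3 and Gjd2, taken by name, 9 of the 54127 genes quantified. Gjc1 was selected on measured values of these libraries, namely a level higher in K27M than in control cells in every region and day comparison, so its K27M differences are given as a description, without a test.

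The cells came from litters in which an hGFAP-Cre transgene, active in radial glia and the neural and glial cells that descend from them, switched on the histone mutation H3.3 K27M at the endogenous H3-3a locus. K27M pups and littermate control pups were dissected at P5-P7, tissue was pooled by region and genotype, and cells binding an antibody to the OPC receptor PDGFRa were collected by panning. The 16 groups are K27M brainstem, control brainstem, K27M dorsal telencephalon and control dorsal telencephalon OPCs, each kept in proliferation medium (day 0) or given thyroid hormone without PDGF for 1, 2 or 5 days. Each region and genotype was grown as 3 cultures (38, 41 and 42), making 12 culture lines, and 142 wells were sequenced, 9 per group except 8 in brainstem K27M at day 2 and in brainstem control at day 1. Wells of a culture line share their cells. A change is therefore written as "rose" or "fell" only where it passed an adjusted p of 0.05 both among wells and among the 48 sums of a culture line on a day, in the same direction (edgeR's quasi-likelihood test with Benjamini-Hochberg adjustment over all genes tested). Calls made among wells alone are named as such. Where wells of 2 groups are said not to overlap, this describes their ranges only. The share of all genes with such a gap is not given here, and wells of a culture line are not independent.

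The median library held 46.9 M read pairs and the shallowest 26.6 M. The deepest, at 455 M, was a day-5 brainstem control well of culture 38, and the next deepest held 84.7 M. OPC genes were present in every group, with the summed level of 11 OPC markers between 183 and 1175 TPM (transcript level scaled for library size and transcript length) in each library, and all 15 mature oligodendrocyte markers rose by day 5 in each region and genotype. Between 31.6% and 33.9% of all genes were called higher at day 5. Brainstem and telencephalon libraries were also labelled with different batches, so region and batch cannot be told apart. K27M brainstem lines were at a mean passage of 3.83 and control brainstem lines at 5.51, against 2.11 in K27M telencephalon and 2.14 in control telencephalon. In these bulk libraries, fewer cells of a type and less RNA per cell cannot be told apart.

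A connexin crosses the membrane and assembles into a hemichannel, and hemichannels of neighbouring cells dock to form a channel that passes ions and small metabolites. In the brain, Cx43 (Gja1), Cx30 (Gjb6) and Cx26 (Gjb2) are the connexins of astrocytes, while Cx32 (Gjb1) and Cx29 (Gjc3) belong to the oligodendrocyte lineage, with Cx32 in myelin. Cx36 (Gjd2) forms electrical synapses of neurons, Cx45 (Gjc1) is a connexin of the early heart, smooth muscle and some neurons, and Cx37 (Gja4) and Cx40 (Gja5) are known from arterial endothelium.

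Gjc3 was the main connexin transcript of proliferating OPCs and of the first days of differentiation. It made up between 62.3% and 98.0% of the summed TPM of the 9 connexins on days 0, 1 and 2. That sum was 21.8 TPM in brainstem K27M, 23.1 TPM in brainstem control, 16.2 TPM in telencephalon K27M and 15.3 TPM in telencephalon control cells at day 0. By day 5 it was 87.5 TPM in brainstem K27M and 66.4 TPM in brainstem control cells, with 116 TPM in telencephalon K27M and 132 TPM in telencephalon control cells.

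The make-up of the sum was different at day 5, when 3 connexins shared nearly all of it. Gjb1 took 44.0% in brainstem K27M, 44.8% in brainstem control, 55.8% in telencephalon K27M and 42.7% in telencephalon control cells. Gjc3 took 34.6%, 45.8%, 20.2% and 17.6% in the same order of groups, and Gja1 took 19.9%, 8.94%, 22.5% and 38.6%. The largest share of Gjc1 in each region was in K27M cells at day 0, at 5.69% in brainstem and 13.3% in telencephalon.

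**Figure D1:**
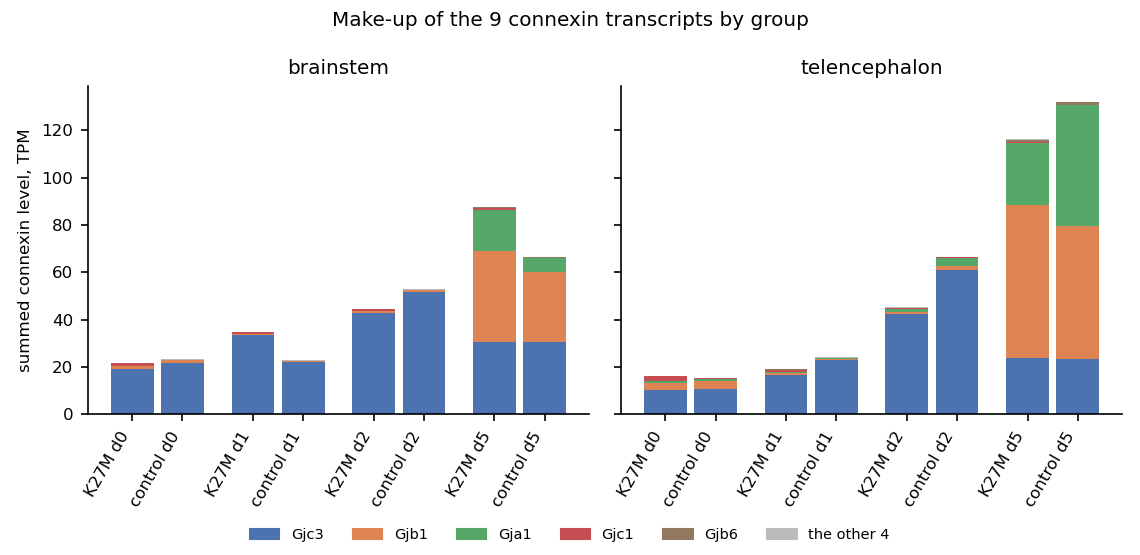
Stacked bars give the mean TPM of each of the 9 connexins in the 16 groups, by region, genotype and day (y axis, summed TPM). Gjc3 fills most of each bar on days 0 to 2, and Gjb1 and Gja1 appear beside it at day 5, when the sums lie between 66.4 and 132 TPM.

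Differentiation moved the connexins in different ways, and all day comparisons of a region and genotype share its day-0 libraries. At day 1 against day 0, of the 8 connexins tested, 1 was called in brainstem K27M (18.6% of all genes tested), 1 in brainstem control (18.3%), 2 in telencephalon K27M (31.8%) and 4 in telencephalon control cells (37%), all of them falls except the rise of Gjc3 in both telencephalon groups. At day 2, 3 were called in brainstem K27M (47.5%), 1 in brainstem control (52.6%), 3 in telencephalon K27M (51.7%) and 4 in telencephalon control cells (55.2%). The day-2 rises were of Gjc3 in each group and of Gja1 in telencephalon control cells. At day 5, 4 were called in brainstem K27M (59.6%), 6 in brainstem control (64.9%), 6 in telencephalon K27M (64.9%) and 6 in telencephalon control cells (64.4%), all of them rises except the fall of Gjc1 in both telencephalon groups. The day-5 counts were near the share of all genes, so they say nothing particular about the connexins as a family. Folds below come from fits scaled by the trimmed mean of M-values (TMM), on which the median gene moved by at most 0.09 on the log2 scale. Ratios of TPM run lower at later days, since the median log2 TPM ratio of a gene against day 0 lay between -0.59 and -0.05. Of the 50 pairs of a connexin and a comparison called in all, 23 were still called with both fits repeated without any 1 of the 3 cultures, and they were all changes over the days. These 23 were the day-5 rises of Gjb1, Gja1, Gjb6 and Gjb2 and the day-2 rise of Gjc3 in every region and genotype, the day-5 rise of Gjc3 in telencephalon K27M and telencephalon control cells, and the day-1 fall of Gjb1 in telencephalon control cells. Gjb6 passed the filter on low counts through its day-5 wells, and Gjb2 may have done so. The day-5 rises of Gjb6, and perhaps of Gjb2, are therefore not independent of their selection for testing. Gjb6 was also too scarce before day 5 for a call at day 1 or day 2 to be likely.

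Gjc3, the Cx29 gene, peaked at day 2 in each region and genotype. Mean levels on days 0, 1, 2 and 5 were 19.1, 33.5, 42.9 and 30.3 TPM in brainstem K27M cells, and 21.6, 22.2, 51.7 and 30.4 TPM in brainstem control cells. In the telencephalon they were 10.1, 16.6, 42.1 and 23.5 TPM in K27M cells, and 10.6, 22.8, 60.9 and 23.3 TPM in control cells. The group means at day 2 had an SD over the 3 cultures of 12.5 TPM (brainstem K27M), 32.2 TPM (brainstem control), 1.43 TPM (telencephalon K27M) and 8.70 TPM (telencephalon control). The spread in brainstem control cells came from culture 38, whose day-2 mean was 17.2 TPM beside 81.1 TPM in culture 41 and 56.7 TPM in culture 42.

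Gjc3 rose by day 2 in each region and genotype, by 1.42 ± 0.17 (log2 fold change ± SE) in brainstem K27M, 1.71 ± 0.17 in brainstem control, 2.51 ± 0.17 in telencephalon K27M and 2.95 ± 0.18 in telencephalon control cells. The adjusted p among culture sums was 0.00026, 2.1e-05, 1.6e-07 and 1.0e-08 in the same order. Day-2 and day-0 wells did not overlap in 3 of these 4 cases, the exception being brainstem control cells. An earlier rise, at day 1, was found in telencephalon K27M (0.96 ± 0.17) and telencephalon control cells (1.37 ± 0.17). At day 5 Gjc3 was still above day 0 in brainstem control (1.05 ± 0.17), telencephalon K27M (1.62 ± 0.17) and telencephalon control cells (1.57 ± 0.17). In brainstem K27M cells the day-1 and day-5 differences (0.74 ± 0.16 and 0.68 ± 0.16) passed among wells only, with an adjusted p among culture sums of 0.081 and 0.054. Without 1 culture, the adjusted p among culture sums was up to 0.21 for the day-1 rise in telencephalon K27M (without culture 41; 0.093 without culture 38), 0.059 for that in telencephalon control (without culture 42) and 0.056 for the day-5 rise in brainstem control cells (without culture 38).

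Gjb1, the Cx32 gene, first fell and then rose. Mean levels on days 0, 1, 2 and 5 were 1.21, 0.366, 0.641 and 38.5 TPM in brainstem K27M cells, and 1.35, 0.309, 0.842 and 29.8 TPM in brainstem control cells. The telencephalon series were 3.16, 0.732, 1.19 and 64.9 TPM in K27M cells, and 3.44, 0.606, 1.84 and 56.4 TPM in control cells. The day-1 fall was by 1.65 ± 0.27 in brainstem K27M, 1.97 ± 0.29 in brainstem control, 1.85 ± 0.25 in telencephalon K27M and 2.21 ± 0.26 in telencephalon control cells on the log2 scale. Day-1 and day-0 wells did not overlap in any of these 4 cases, and each of the 12 culture lines moved the same way. How many of all genes did so is not given here. Among culture sums the adjusted p for the fall was 0.012, 0.0049, 0.002 and 0.00037 in the same order. At day 2 Gjb1 was still lower than at day 0 in telencephalon K27M cells, where it fell by 1.02 ± 0.24 on the log2 scale. Without 1 culture, the day-1 fall had an adjusted p among culture sums of 0.53 (without culture 41) and 0.078 (without culture 38) in brainstem K27M, 0.14 (without culture 41) in brainstem control and 0.063 (without culture 41) in telencephalon K27M cells, and the day-2 fall had 0.070, 0.19 and 0.088 without culture 38, 41 and 42.

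By day 5 Gjb1 rose in each region and genotype, by 5.09 ± 0.27 in brainstem K27M, 5.12 ± 0.27 in brainstem control, 4.83 ± 0.27 in telencephalon K27M and 4.53 ± 0.26 in telencephalon control cells. The lowest, median and highest day-5 well held 24.6, 38.9 and 49.9 TPM in brainstem K27M, 17.3, 28.5 and 44.5 TPM in brainstem control, 44.8, 62.9 and 96.4 TPM in telencephalon K27M, and 30.3, 59.3 and 76.5 TPM in telencephalon control cells. The highest day-0 well of any of them held 4.71 TPM, so the days did not overlap. The change in K27M cells minus that in control cells passed in neither region, a comparison in which 0.612% (brainstem) and 0.121% (telencephalon) of all genes were called.

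The Gjb1 reads show which of the gene's start sites was in use, and the sequences before the used and the first annotated start site are printed for that reason. Of the 3 annotated Gjb1 transcripts, Gjb1-203, which begins at position 101383736 of chromosome X (plus strand), held 99.9% of the counts, and Gjb1-202, which begins upstream at 101376378, held 0.0425%. Both 250-base windows end just before a RefSeq start site, are on the plus strand of GRCm38.p6 and run 5′ to 3′. Capitals mark the motifs found. One is ACAAAG, a core to which SOX factors of glia are known to bind. Another is GGGCGG, the core of the GC box bound by SP factors. The next is TATAAA, the usual form of the TATA box. An E-box was also searched, spelt CAGCTG, and every motif was searched on both strands, with no match overlapping another.
Gjb1 window before the used start site, chrX:101383482-101383731: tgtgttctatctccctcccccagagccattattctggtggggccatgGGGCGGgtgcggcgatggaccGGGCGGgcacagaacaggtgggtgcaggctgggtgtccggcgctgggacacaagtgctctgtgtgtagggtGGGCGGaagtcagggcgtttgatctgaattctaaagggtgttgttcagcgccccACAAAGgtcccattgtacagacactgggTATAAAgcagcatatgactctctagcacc
Gjb1 window before the first annotated start site, chrX:101376126-101376375: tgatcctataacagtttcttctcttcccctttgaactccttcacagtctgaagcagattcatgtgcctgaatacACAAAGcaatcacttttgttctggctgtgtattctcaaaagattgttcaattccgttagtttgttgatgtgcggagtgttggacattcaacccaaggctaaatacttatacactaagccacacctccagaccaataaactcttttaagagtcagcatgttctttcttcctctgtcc
The window before the used start site holds 3 GC boxes at 203, 182 and 111 bases upstream of that site, 1 SOX box at 57 bases and 1 TATA box at 29 bases, and 10 CG dinucleotides. The first window holds 1 SOX box at 176 bases, no GC box or TATA box, and 2 CG dinucleotides. Among 32851 RefSeq windows of 250 bases, 16.5% hold a SOX box, 32.7% a GC box, 12.4% a TATA box and 13.0% the E-box, and the median window has 6 CG dinucleotides. These matches are a description of the letters.

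**Figure D2:**
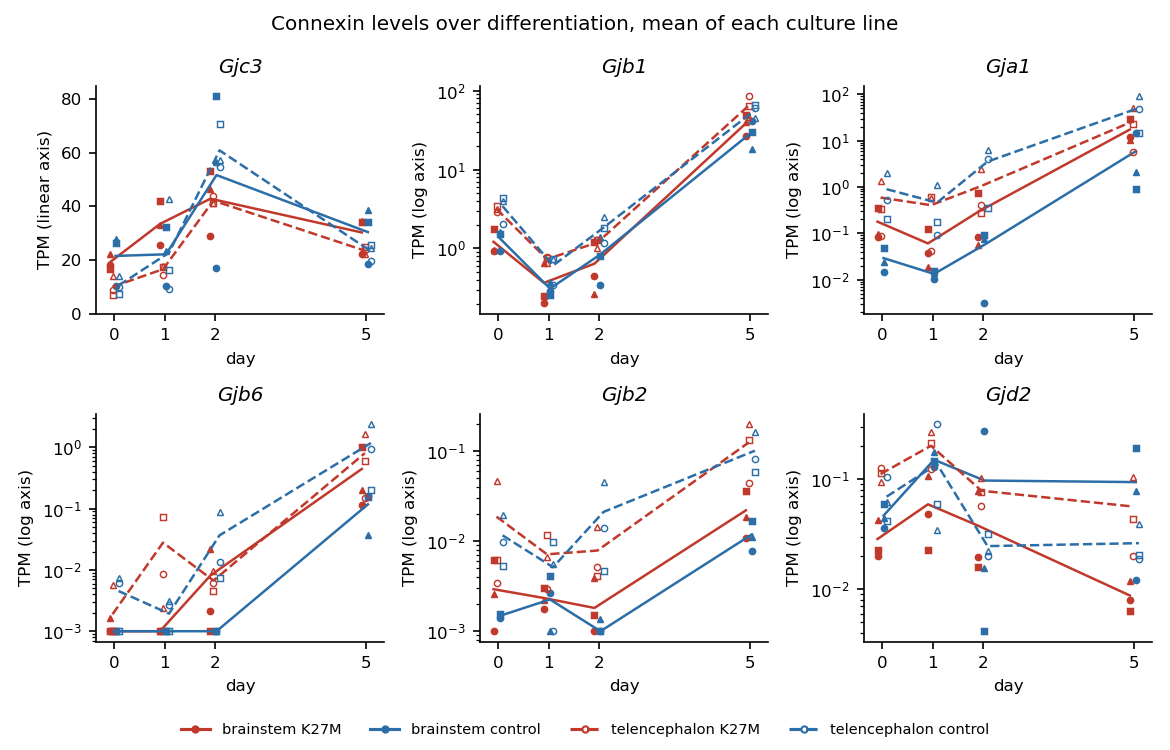
Panels plot TPM against day of differentiation (0, 1, 2 and 5) for Gjc3 (linear axis) and for Gjb1, Gja1, Gjb6, Gjb2 and Gjd2 (log axes), with a line for each group mean and a point for each culture line, filled for brainstem and open for telencephalon, and lower values are drawn at 0.001 TPM. Gjc3 is highest at day 2, Gjb1 dips at day 1 before its day-5 level of 29.8 to 64.9 TPM, and Gja1, Gjb6 and Gjb2 are highest at day 5.

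Gja1, the Cx43 gene, was low in proliferating OPCs and rose by day 5 in each region and genotype. Day-0 wells ranged from 0.0351 to 0.533 TPM in brainstem K27M, 0.0102 to 0.0633 TPM in brainstem control, 0.0268 to 2.05 TPM in telencephalon K27M and 0.104 to 2.28 TPM in telencephalon control cells. At day 5 the lowest, median and highest well held 8.95, 12.1 and 31.8 TPM in brainstem K27M, 0.731, 1.74 and 16.6 TPM in brainstem control, 4.93, 21.9 and 51.0 TPM in telencephalon K27M, and 12.8, 53.8 and 109 TPM in telencephalon control cells. Day-5 and day-0 wells did not overlap in any of the 4. The rise was 6.79 ± 0.64 in brainstem K27M, 8.52 ± 0.77 in brainstem control, 6.28 ± 0.61 in telencephalon K27M and 6.68 ± 0.61 in telencephalon control cells on the log2 scale, with an adjusted p among culture sums between 1.0e-06 and 1.2e-05. Gja1 also rose by day 2 in telencephalon control cells (2.66 ± 0.53, 3.53 against 0.897 TPM, adjusted p 0.017 among culture sums, 0.087 without culture 38 and 0.10 without culture 42).

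Cultures of 1 group differed widely in Gja1. In brainstem control cells at day 5, culture 38 averaged 14.8 TPM, culture 41 averaged 0.925 TPM and culture 42 averaged 2.07 TPM, and 56145 of the group's 70367 Gja1 counts came from the deepest library. In telencephalon control cells the same cultures averaged 47.9, 14.7 and 90.4 TPM at day 5. Where a culture line had wells of more than 1 passage on a day, Gja1 was higher at the lower passage in 10 of 13 cases. In telencephalon K27M culture 42 at day 2, for example, the passage-1 well held 7.41 TPM and the 2 passage-3 wells averaged 0.0234 TPM.

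Astrocyte markers were measured beside Gja1. Of a list of 16 astrocyte markers, Gja1 not among them, 10 rose by day 5 in brainstem K27M, 9 rose and 1 fell in brainstem control, 10 rose and 1 fell in telencephalon K27M, and 11 rose in telencephalon control cells. Of all genes 59.6%, 64.9%, 64.9% and 64.4% were called in the same order, and 31.6%, 32.8%, 33.7% and 33.9% were called higher. The number of markers called in either direction was thus near the share of all genes. The summed level of the markers in the lowest, median and highest day-5 well was 369, 550 and 919 TPM in brainstem K27M, 107, 128 and 565 TPM in brainstem control, 153, 615 and 1216 TPM in telencephalon K27M, and 530, 1365 and 2949 TPM in telencephalon control cells. At day 0 it was 162, 253 and 278 TPM, 153, 197 and 262 TPM, 101, 137 and 283 TPM, and 148, 283 and 314 TPM in the same order of groups. In TPM the day-5 median was thus above the day-0 median in all groups but brainstem control. The median gene's log2 TPM ratio of these days was -0.59 in brainstem control cells, so the lower sum does not by itself show a fall. In the TMM fits 9 markers rose and 1 fell in that group. There the sum was 116 against 249 TPM in culture 41 and 123 against 214 TPM in culture 42 (day 5 against day 0), while Gja1 was 0.925 against 0.0486 TPM and 2.07 against 0.0244 TPM. Culture 38 went the other way, with a sum of 522 against 163 TPM and Gja1 at 14.8 against 0.0145 TPM. Single markers differed in direction. Gfap averaged 146, 44.3, 329 and 877 TPM and Aqp4 48.9, 7.76, 39.4 and 70.8 TPM at day 5, all above their day-0 means. Acsbg1, an acyl-CoA synthetase, was lower in TPM at day 5 than at day 0 in all 4 groups (14.2 against 54.99 TPM in brainstem control cells). The TPM of the glutamate transporters Slc1a3 (9.46 against 24.4) and Slc1a2 (10.1 against 18.3) were also lower in brainstem control cells. The median gene's log2 TPM ratio was also below 0 in each group, at -0.45 in telencephalon control cells. The part of astrocyte-like cells in the rise of Gja1, Gjb6 and Gjb2 was not tested.

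**Figure D3:**
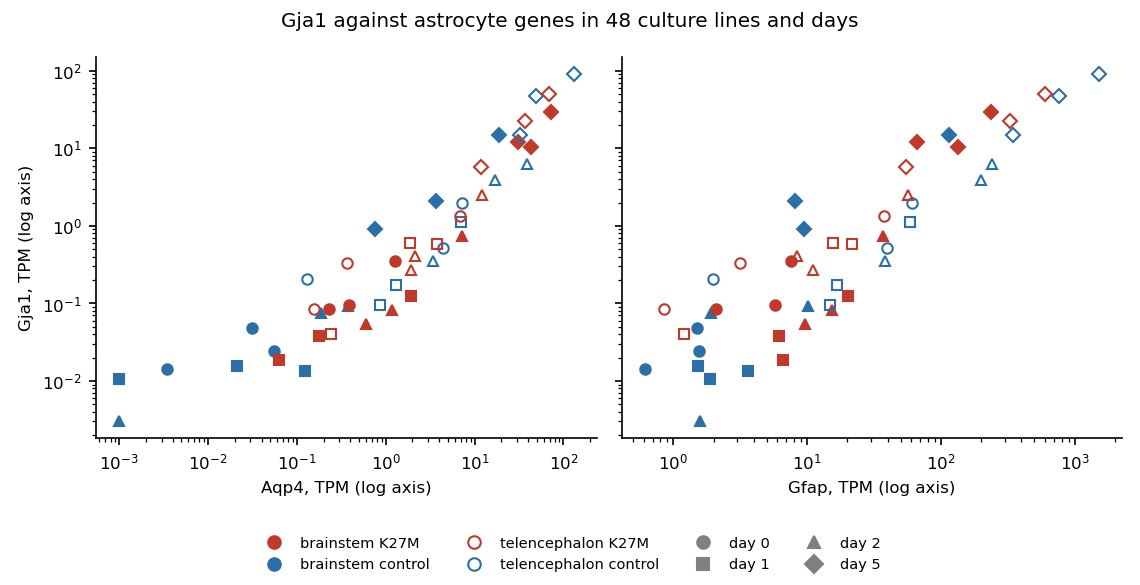
Each point is 1 of the 48 culture lines on a day, with Gja1 TPM on the y axis against the TPM of the astrocyte markers Aqp4 and Gfap on the x axes (log scales), lower values being drawn at 0.001 TPM. Gja1 is high where Aqp4 and Gfap are high, and the day-5 points lie at the upper right.

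Gjb6 and Gjb2, the other astrocyte connexins, had their highest group means at day 5. Gjb6 had 0 to 4 counts in all wells of a group together at day 0, and its highest total before day 5 was 27 counts, in telencephalon control cells at day 2, where it passed among wells only. It passed the filter on low counts through its day-5 wells, so its day-5 calls are not independent of its selection for testing. At day 5 it averaged 0.446 TPM in brainstem K27M, 0.118 TPM in brainstem control, 0.807 TPM in telencephalon K27M and 1.18 TPM in telencephalon control cells, and it rose in all 4. In telencephalon control cells the rise was 8.23 ± 0.65 on the log2 scale, with 1102 counts at day 5 and 4 at day 0. In brainstem K27M cells 574 counts at day 5 stood against 1 at day 0, a ratio per read pair of 614 (95% interval for counting error 110 to 24298), and in telencephalon K27M cells 661 against 3 gave 334 (114 to 1622). In brainstem control cells 451 counts stood against 0, at least 101-fold higher against a floor of 3 counts over the group, and 359 of the 451 came from the deepest library.

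Gjb2 stayed lower than Gjb6 at day 5. It averaged 0.0218 TPM in brainstem K27M, 0.0118 TPM in brainstem control, 0.124 TPM in telencephalon K27M and 0.1003 TPM in telencephalon control cells at day 5, and no group mean before day 5 exceeded 0.021 TPM. It was present at earlier days, with 31 counts in telencephalon K27M cells at day 0 and 23 and 39 counts in telencephalon control cells at days 0 and 2. With so few counts, its passing the filter on low counts may also have rested on day 5. Gjb2 rose by 2.71 ± 0.59 in brainstem K27M, 3.35 ± 0.44 in telencephalon K27M and 3.51 ± 0.46 in telencephalon control cells on the log2 scale. It also rose in brainstem control cells, where 42 counts at day 5 stood against 3 at day 0, a ratio of 9.44 (3.02 to 47.6). Gjb2 and Gjb6 lie 18.6 kb apart on chromosome 14, on the same strand.

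Gjc1, the Cx45 gene, was lower at later days than in proliferating OPCs. It fell by day 5 in telencephalon K27M (by 1.12 ± 0.25 on the log2 scale, adjusted p 0.016 among culture sums) and telencephalon control cells (it fell by 1.502 ± 0.31 on the log2 scale, 0.0071). It fell by day 2 in brainstem K27M (by 1.04 ± 0.26, 0.037), telencephalon K27M (by 1.29 ± 0.25, 0.011) and telencephalon control cells (by 1.25 ± 0.30, 0.025), and at day 1 in telencephalon control cells alone (by 1.24 ± 0.30, 0.041). In brainstem control cells the day-2 and day-5 values of -1.07 ± 0.36 and -1.06 ± 0.35 passed among wells only, with an adjusted p of 0.087 and 0.053 among culture sums. Brainstem K27M cells at day 5 had a value of -0.43 ± 0.25 that passed neither test. Each of the 6 falls lost its call among culture sums without culture 42, with an adjusted p of 0.062 to 0.35. Without culture 41 the adjusted p was 0.085 in brainstem K27M at day 2, 0.087 in telencephalon K27M at day 5, and 0.064 and 0.087 in telencephalon control cells at days 1 and 2, where it was 0.076 and 0.057 without culture 38.

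The vascular and neuronal connexins were near the floor throughout. Gja5 had a highest group mean of 0.0338 TPM, and Gja4 of 0.054 TPM, with 13 to 76 counts per group. Gja5 fell at day 1 (by 1.84 ± 0.50 on the log2 scale) and day 2 (by 1.26 ± 0.47) in telencephalon control cells and at day 2 in brainstem K27M cells (by 1.46 ± 0.61, 9 counts against 35), and rose at day 5 in brainstem control cells (1.57 ± 0.52, 70 counts against 17, 35 of the 70 in the deepest library). None of these 4 Gja5 calls held without each culture, with an adjusted p among culture sums of up to 0.15, 0.28, 0.49 and 0.20 in that order (without culture 42, 42, 41 and 41). Gja5 overlaps other genes on chromosome 3. Gja4 was too low to be tested among wells, and among culture sums alone its day-5 value was -2.43 in brainstem K27M (adjusted p 0.00094), -2.60 in brainstem control (0.00048), -1.31 in telencephalon K27M (0.056) and -1.45 in telencephalon control cells (0.041). Gjd2 was at most 0.201 TPM in a group mean and was called over the days among wells only, at days 1, 2 and 5 in brainstem control cells and at day 1 in telencephalon control cells.

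The second comparison asked how K27M cells differed from control cells of the same region and day. Gjc1 was higher in K27M at all 8 region and day pairs, the pattern by which it was chosen. At day 0 the lowest, median and highest well held 0.388, 1.14 and 2.17 TPM in brainstem K27M cells, against 0.0451, 0.0768 and 0.125 TPM in brainstem control cells. The telencephalon wells at day 0 held 0.962, 1.69 and 3.63 TPM in K27M cells, against 0.0794, 0.217 and 0.329 TPM in control cells. No K27M well overlapped a control well of its region on that day.

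The later days, which were part of the same choice of Gjc1 and so do not repeat it, are given for their levels. How many genes in all showed such a gap is not given here. Brainstem wells held 0.307, 0.669 and 1.61 TPM in K27M at day 1, against 0.0139, 0.0453 and 0.0884 TPM in control cells. At day 2 they held 0.181, 0.583 and 0.799 TPM in K27M, against 0, 0.0225 and 0.0702 TPM in control cells, where 1 library was at 0. At day 5 they held 0.359, 0.951 and 1.08 TPM in K27M, against 0.0059, 0.0147 and 0.0587 TPM in control cells. K27M and control wells of the brainstem did not overlap on any of these days.

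In the telencephalon, day-1 wells held 0.472, 1.15 and 1.99 TPM in K27M, against 0.0437, 0.0608 and 0.0895 TPM in control cells. The day-2 wells held 0.354, 0.577 and 1.17 TPM in K27M, against 0.0186, 0.0502 and 0.206 TPM in control cells. The day-5 wells held 0.374, 0.631 and 0.940 TPM in K27M, against 0.0226, 0.0394 and 0.173 TPM in control cells. The lowest K27M well lay above the highest control well on each of these days, in values that the choice of Gjc1 also used.

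**Figure D4:**
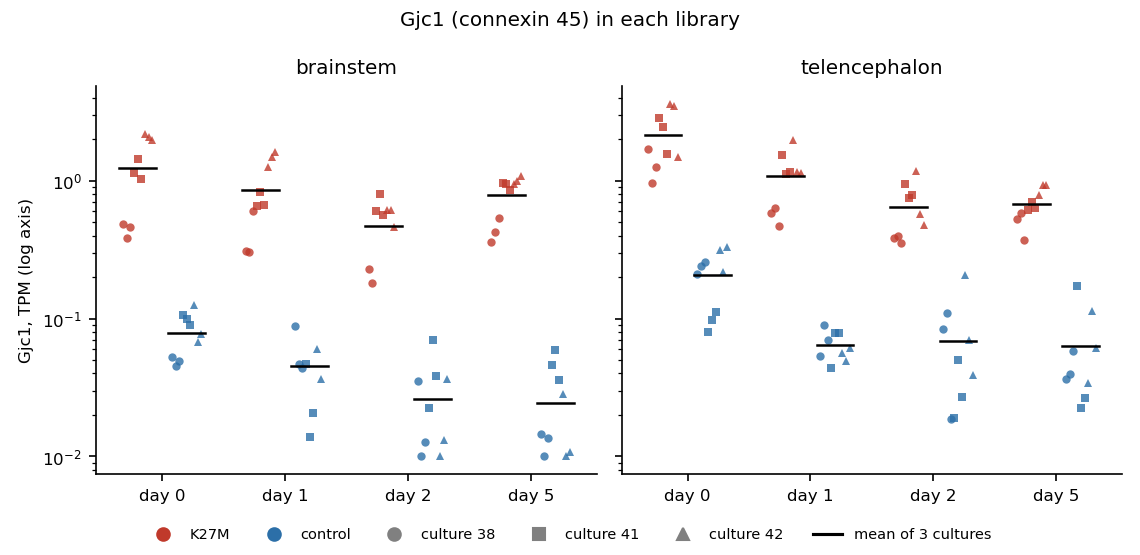
Each point is the Gjc1 level of 1 library in TPM (log axis), with K27M left of control for each region and day, shapes for cultures 38, 41 and 42 and a line for the mean of the 3 cultures, and values under 0.01 TPM are drawn at 0.01 TPM. K27M libraries lie between 0.181 and 3.63 TPM and control libraries between 0 and 0.329 TPM, and K27M and control do not overlap within any region and day.

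The fitted Gjc1 differences, K27M over control, were 3.85 ± 0.29, 3.83 ± 0.33, 3.88 ± 0.34 and 4.47 ± 0.32 in the brainstem on days 0, 1, 2 and 5 (log2 ± SE), and 3.18 ± 0.27, 3.65 ± 0.29, 3.14 ± 0.29 and 3.56 ± 0.31 in the telencephalon. As ratios of mean TPM these were 15.7, 19.1, 18.0 and 32.1 in the brainstem and 10.4, 16.8, 9.39 and 10.8 in the telencephalon. Each of the 3 cultures of each region had the same direction on each day, with per-culture values from 2.32 to 5.16 on the log2 scale. Culture 38 had the lowest of the 3 in all but 1 of the 8 comparisons, the exception being brainstem day 5. The brainstem difference minus the telencephalon difference was 0.67 ± 0.38, 0.17 ± 0.42, 0.74 ± 0.45 and 0.91 ± 0.44 on days 0, 1, 2 and 5. Gjc1 was higher at the lower passage in 10 of 13 culture lines and days with wells of more than 1 passage.

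Gjc1 is transcribed from the minus strand of chromosome 11, between 102799579 and 102819700. The transcript Gjc1-201 held 72.8% of the gene's counts in K27M libraries and 44.5% in control libraries (8911 and 415 counts). Gjc1-202 held 10.0% in K27M and 30.6% in control libraries (1220 and 285 counts), and it begins at 102819700, upstream of the Gjc1-201 start at 102819179. The other genes tested within 100 kb (Adam11, Eftud2, Ccdc103, Gfap and Kif18b) were not called in K27M against control cells in either region on any day.

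The other connexins gave few calls between genotypes. Of the 7 tested without Gjc1, none was called in the brainstem at day 0 (1.45% of all genes), day 1 (4.93%) or day 2 (4.26%), and 1, Gjd2, was called at day 5 (12.1%). In the telencephalon none was called at day 0 (0.389%), day 1 (4.99%), day 2 (5.3%) or day 5 (2.28%). Gjb6, 1 of these 7, had few counts in every group before day 5. A call of it on days 0, 1 and 2 was thus unlikely from the start. Among wells alone, an alternative added after seeing the data, 7 pairs of a connexin and a day passed in the brainstem and 6 in the telencephalon. Ratios of TPM lean towards K27M in the brainstem at day 5, where the median gene's log2 TPM ratio was 0.34.

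Gjd2, the Cx36 gene, was lower in K27M brainstem cells at day 5. The lowest, median and highest well held 0, 0.00822 and 0.0245 TPM in K27M cells, against 0.00806, 0.0819 and 0.204 TPM in control cells, with 25 and 240 counts in all. The ranges overlapped, and the overlap came from culture 38, in which control cells averaged 0.0121 TPM. Gjd2 fell by 3.69 ± 0.66 on the log2 scale (adjusted p 1.9e-06 among wells and 0.033 among culture sums), with -0.43 in culture 38, -4.63 in culture 41 and -2.89 in culture 42. In culture 38 both genotypes were at passage 4. The K27M and control wells were at passages 2 and 5 in culture 41 and at 4 and 7 in culture 42. Within those 2 cultures genotype and passage cannot be told apart. The call was lost without culture 41 (-2.33 among wells, adjusted p 0.52 among culture sums) or culture 42 (-3.84 and 0.17). The brainstem difference minus the telencephalon difference at day 5 was -4.66 ± 0.91, which passed among wells only (adjusted p 0.073 among culture sums, 0.0034 without culture 38). Gjd2 overlaps A530058N18Rik, a processed transcript on the other strand.

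Gja1 differed between genotypes among wells only. It was higher in brainstem K27M cells at day 0 (0.178 against 0.0291 TPM, 2.65 ± 0.84 on the log2 scale) and day 2 (0.293 against 0.0567 TPM, 2.38 ± 0.75). It was lower in telencephalon K27M cells at day 2 (1.05 against 3.53 TPM, -2.21 ± 0.53). The adjusted p among culture sums was 0.45, 0.31 and 0.15 in the same order, and K27M and control wells overlapped in each case. Of the 16 astrocyte markers, 2 rose in brainstem K27M cells at day 2 (4.26% of all genes called), 3 rose there at day 5 (12.1%), and 4 fell in telencephalon K27M cells at day 2 (5.3%). Gjb6 at day 5 was 0.446 TPM in brainstem K27M and 0.118 TPM in brainstem control cells (1.63 ± 0.45, adjusted p 0.19 among culture sums), with culture 38 at -0.73, culture 41 at 4.30 and culture 42 at 1.83. Without culture 38, Gjb6 and Gja1 were both called higher in brainstem K27M cells at day 5, at 3.12 and 2.84 on the log2 scale (adjusted p 0.015 and 0.036 among culture sums). Only in culture 38 were K27M and control wells of that day at the same passage. There, the means of Gjb6 and Gja1 were lower in K27M than in control cells. In cultures 41 and 42 the K27M wells were at a lower passage, so this fit cannot tell genotype from passage.

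For Gjc3 the K27M difference itself differed between the regions at day 1. The brainstem held 33.5 TPM in K27M and 22.2 TPM in control cells, and the telencephalon 16.6 TPM in K27M and 22.8 TPM in control cells. Each K27M difference passed among wells only, at 0.65 ± 0.17 in the brainstem and -0.57 ± 0.17 in the telencephalon. Their difference was 1.21 ± 0.24 on the log2 scale (adjusted p 1.8e-05 among wells and 0.049 among culture sums), the 1 call among 7 connexins in a comparison where 10.4% of all genes were called. In the telencephalon the values were 0.38 in culture 38, -0.11 in culture 41 and -1.48 in culture 42. The adjusted p among culture sums was 0.060, 0.37 and 0.47 without culture 38, 41 and 42, and the difference was 0.54 among wells without culture 42. On the other days no connexin was called for this difference, beside 0.00506% of all genes at day 0, 1.05% at day 2 and 5.11% at day 5. Gjb6 was again too scarce before day 5 for a call to be likely. Of 15 mature oligodendrocyte markers, 5 also rose in this day-1 comparison.

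**Figure D5:**
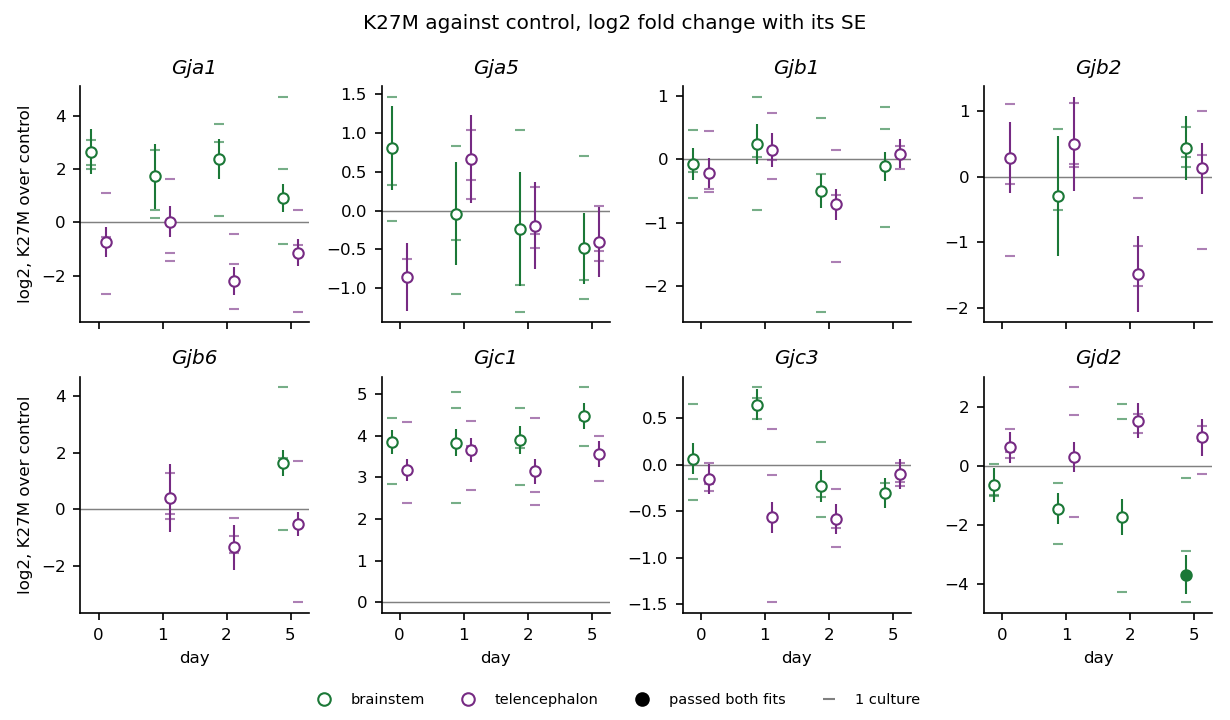
Points give the log2 fold change, K27M over control, with its SE for each connexin on days 0, 1, 2 and 5 in brainstem and telencephalon, ticks give the value of each culture, and filled points passed among wells and among culture sums (Gjc1 is drawn without a test, and no point is drawn where a group had 3 or fewer counts). Gjc1 lies between 3.14 and 4.47, and the other connexins lie on both sides of 0 with wide errors for the scarce ones.

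The third comparison set brainstem against telencephalon cells of the same genotype and day. In K27M cells no connexin of the 8 tested was called at day 0 (2.08% of all genes), day 1 (2.44%) or day 2 (1.5%), and 1 was called at day 5 (3.68%). In control cells 1 was called at day 0 (3.65%), 1 at day 1 (19.4%), 2 at day 2 (5.92%) and 2 at day 5 (7.46%). All of these were lower in the brainstem, and all but that of Gja5 at day 0 were of the astrocyte connexins Gja1, Gjb2 and Gjb6. Each lost its call among culture sums without 1 or more of the cultures. Gjb6 had few counts before day 5, so a call of it on days 0, 1 and 2 was unlikely from the start.

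Gja1 was lower in brainstem than in telencephalon control cells. At day 1 wells held 0.00339, 0.0124 and 0.0299 TPM (lowest, median and highest) in the brainstem, against 0.0479, 0.193 and 1.15 TPM in the telencephalon, and it fell by 4.69 ± 0.95 on the log2 scale (adjusted p 0.027 among culture sums). At day 2 they held 0, 0.0604 and 0.117 TPM in the brainstem, against 0.296, 4.20 and 8.27 TPM in the telencephalon, and it fell by 6.05 ± 0.70 (0.0088). Brainstem and telencephalon wells did not overlap on days 0, 1 and 2. The values of -4.54 ± 0.77 at day 0 and -2.70 ± 0.53 at day 5 passed among wells only (0.057 and 0.18 among culture sums). Without 1 culture, the adjusted p among culture sums was 0.060, 0.056 and 0.36 at day 1 and 0.10, 0.018 and 0.11 at day 2 (without culture 38, 41 and 42). With passage as a covariate the values were -0.79 at day 1 (adjusted p 0.51 among wells) and -1.80 at day 2 (0.022). Of the 16 astrocyte markers, 3 fell and 1 rose at day 0 (3.65% of all genes called), 4 fell and 1 rose at day 1 (19.4%), 10 fell at day 2 (5.92%) and 1 fell at day 5 (7.46%) in the same comparisons. Gfap averaged 4.53 TPM in the brainstem and 159 TPM in the telencephalon in control cells at day 2.

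Gjb6 and Gjb2 followed the same direction. Gjb6 at day 5 averaged 0.118 TPM in brainstem control and 1.18 TPM in telencephalon control cells, and fell by 3.03 ± 0.44 on the log2 scale. Gjb2 at day 5 averaged 0.0118 TPM in brainstem control and 0.1003 TPM in telencephalon control cells (fell by 2.89 ± 0.44), and 0.0218 TPM in brainstem K27M and 0.124 TPM in telencephalon K27M cells (fell by 2.59 ± 0.42). At day 2 Gjb2 had 1 count in brainstem control and 39 counts in telencephalon control cells and was called lower. Gja5 fell by 2.06 ± 0.50 in brainstem against telencephalon control cells at day 0, with 17 and 79 counts. With passage as a covariate, Gjb6 at day 5 in control cells was at 0.29 (adjusted p 0.43 among wells) and Gjb2 at -1.61 (0.070). Without culture 42 the adjusted p among culture sums was 0.70 for Gjb6, 0.35 and 0.33 for Gjb2 at day 5 in control and K27M cells, 0.13 for Gjb2 at day 2 and 0.36 for Gja5, and without culture 41 it was 0.098, 0.089, 0.25, 0.073 and 0.14. Without culture 38 it was 0.060 for Gjb2 at day 5 in K27M cells, 0.072 for Gjb2 at day 2 and 0.15 for Gja5.

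The oligodendrocyte connexins did not pass between regions among culture sums, which were fitted here without the culture number. Gjb1 passed among wells in every such comparison, and Gjc3 in some of them. Gjb1 was lower in the brainstem on all 4 days in both genotypes, with values from -0.75 ± 0.23 (control, day 5) to -1.35 ± 0.24 (control, day 0) on the log2 scale, with an adjusted p of 0.064 or more among culture sums. Its mean was lower in the brainstem in all 24 pairs of cultures of the same number, genotype and day. These pairs come from 12 culture lines followed over 4 days, so they are not 24 independent observations. Batch differed between the regions in every pair. At day 0 its wells did not overlap between the regions, with means of 1.21 and 3.16 TPM in brainstem and telencephalon K27M cells and of 1.35 and 3.44 TPM in brainstem and telencephalon control cells. Gjc3 was higher in the brainstem at day 0, at 19.1 and 10.1 TPM in K27M (1.13 ± 0.17, adjusted p 0.19 among culture sums) and 21.6 and 10.6 TPM in control cells (0.91 ± 0.17, 0.15). It also passed among wells at day 1 in K27M (0.91) and at day 5 in control cells (0.39). In the other comparisons it passed in neither fit, at -0.31 and -0.33 in control cells on days 1 and 2 and 0.03 and 0.18 in K27M cells on days 2 and 5.

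Of 2 pannexins tested, which form channels in the membrane without docking, Panx1 rose by day 2 in each region and genotype, by 1.16 ± 0.15 in brainstem K27M, 1.74 ± 0.15 in brainstem control, 1.52 ± 0.15 in telencephalon K27M and 2.28 ± 0.16 in telencephalon control cells, and it was not called at day 5. In these day-2 comparisons 47.5%, 52.6%, 51.7% and 55.2% of all genes were called in either direction, in the same order. Day 2 was also the day of the highest Gjc3 level, and a link between Panx1 and Gjc3 was not tested.

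A list of 17 genes for connexin scaffolds, trafficking and turnover was followed beside the connexins. At day 5 against day 0, 5 rose and 5 fell in brainstem K27M (59.6% of all genes called), 6 rose and 9 fell in brainstem control (64.9%), 6 rose and 8 fell in telencephalon K27M (64.9%), and 6 rose and 8 fell in telencephalon control cells (64.4%). Their median log2 fold change was -0.02, -0.34, 0.0039 and -0.05 in that order, beside 0.06, 0.07, 0.08 and 0.09 over all genes tested. Dlg1, a membrane scaffold, rose by 2.35 ± 0.13 in brainstem K27M, 3.18 ± 0.13 in brainstem control, 2.89 ± 0.13 in telencephalon K27M and 2.95 ± 0.13 in telencephalon control cells. Ccn3, a secreted protein known to bind Cx43, rose by 5.96 ± 0.47, 6.06 ± 0.54, 3.76 ± 0.50 and 4.54 ± 0.51 in the same order, to between 0.184 and 1.53 TPM. Cgn, the tight-junction protein cingulin, fell by 1.503 ± 0.32, 1.74 ± 0.33, 2.14 ± 0.34 and 1.83 ± 0.34.

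Between genotypes the same list gave 2 rises in the brainstem at day 2 (4.26% of all genes called) and 3 rises and 1 fall at day 5 (12.1%), with 1 rise and 1 fall in the telencephalon at day 2 (5.3%) and 1 fall at day 5 (2.28%). Cav1, the caveolar coat protein caveolin-1, rose in brainstem K27M cells at day 2 (19.6 against 9.05 TPM, 1.09 ± 0.20) and day 5 (17.8 against 6.19 TPM, 1.06 ± 0.20). Dbn1, an actin-binding protein known to hold Cx43 at the membrane, rose in brainstem K27M cells at day 5 (12.3 against 4.50 TPM, 1.03 ± 0.12). Dlg1 fell there at the same day by 0.80 ± 0.12 and in telencephalon K27M cells at day 2 by 0.81 ± 0.12, where Cgn rose by 1.17 ± 0.32. Ccn3 at day 5 was higher in brainstem than in telencephalon K27M cells (1.53 against 0.184 TPM, 2.96 ± 0.40). Cav1 was also higher in the brainstem than in the telencephalon on all 4 days in K27M cells, by 1.86 to 2.14 on the log2 scale.

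The genes most like each abundant connexin were found by Pearson's correlation of log2 CPM over the 48 sums, which share libraries, lines and day, so the values are a description. For Gja1 they were Sdc4 (0.970), A2m (0.970) and Synpo2 (0.966). For Gjb1 they were Glul (0.969), its near-copy Glns-ps1 (0.966), whose counts cannot be separated from those of Glul with certainty, and Mtmr2 (0.965). For Gjb6 they were Rida (0.971), Phkg1 (0.963) and Fmod (0.958), and for Gjc3 Apba1 (0.924), Syne3 (0.894) and Rap1gds1 (0.892). For Gjc1 they were Asb4 (0.928), Prm1 (0.923) and Sybu (0.919), values that also follow the gap between K27M and control cells by which Gjc1 was chosen, and Prm1 sequence is carried by the Cre construct, as the study's methods state. The Gjc1 correlation was 0.09 with Gja1 and -0.04 with Gjb1.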

How the data were processed

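RNA was sequenced from 142 wells of OPCs of 2 regions and 2 genotypes on days 0, 1, 2 and 5. The authors quantified reads with Salmon 1.10.1 against a mouse transcriptome and deposited, for each transcript and well, an estimated count and a TPM value, scaled for transcript length and library size. Estimated counts were summed per gene with the GENCODE M21 transcript map and rounded, and TPM were summed for the levels shown. The study names release M25, so some transcripts, with 0.252% to 0.377% of a well's counts, had no gene in the map. Group means are means of 3 cultures, and SDs are over them.

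Genes passing edgeR's filter on low counts (19769) were fitted with edgeR 4.0.16 in R 4.3.3, by the quasi-likelihood test with TMM scaling and culture within region as a block, and p-values were adjusted by Benjamini-Hochberg within each comparison. The same test was run on 48 sums per culture line and day (23003 genes), since wells of a culture line share their cells. P-values measure the spread among these wells and cultures. Region comparisons of sums had no culture block. A call required an adjusted p under 0.05 in both fits and 1 sign. Alternatives were other scaling, no filter, DESeq2 1.42.0 with and without the study's fold threshold of 1.1, effective length as offset, passage as covariate, other blocks, and leaving out a culture or the deepest library. The fits were tested on simulated data.

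Members and gene lists were chosen with earlier results of these data known. Named genes beside the members are, per list, up to 4 called genes with the largest change and a mean of at least 1 CPM, and the 3 genes most correlated with a connexin. Some genes these rules select are not reported here. Promoter windows are from RefSeq (GRCm38.p6). Intervals and floors cover counting error only, as reads carry no molecular identifiers.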

Additional observations from a re-analysis of the deposited data

Results flagged for a closer look

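Gja1 in telencephalon K27M cells at day 2 had 1 library far above the others of its group. The passage-1 well of culture 42 (replicate 1) held 7.41 TPM, from 1571 counts, while the other wells lay between 0.0198 and 0.458 TPM. In telencephalon control cells at day 2 the passage-1 well of the same culture (replicate 1) was the highest for Gjc1, at 0.206 TPM from 29 counts, beside 0.0186 to 0.109 TPM in the other wells. Of 76 pairs of a connexin and a group examined for such gaps, these 2 stood out, and chance gives about 1 in 20.

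The K27M difference of Gjc3 at day 1 was above 0 in brainstem and below 0 in telencephalon cells, each passing among wells only. The brainstem minus the telencephalon difference was 1.21 on the log2 scale in the test of that difference itself. That call was lost without culture 38, 41 or 42 (adjusted p 0.060, 0.37 and 0.47 among culture sums).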

How the results depend on the processing

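Calls of connexins rested on both fits, and the count was most dependent on that rule. With wells alone, an alternative added after seeing the data, 7 pairs of a connexin and a comparison passed for K27M against control in the brainstem (1 under both fits), 6 in the telencephalon (0), 7 for the difference of the K27M effect between regions (1), 21 for brainstem against telencephalon in control cells (6) and 13 in K27M cells (1), 30 for the days in control cells (22), 25 for the days in K27M cells (19), and 1 for the K27M difference of the day-5 change (0). Without 1 culture the counts under both fits ranged from 0 to 3, 0 to 0, 0 to 2, 0 to 3, 0 to 1, 14 to 20, 12 to 17 and 0 to 0 in the same order.

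With passage as a covariate, 3 pairs were called between regions in control cells, and Gjb6 at day 5 in that comparison turned to 0.29. The other changes to the fit on wells, with the culture sums as before, kept all 50 called pairs, except that no filter on low counts and the study's fold threshold each lost 1, the day-2 fall of Gja5 in brainstem K27M cells. Without the culture (no replicate block) or with the well number as a further replicate block, the counts stayed at 1, 0, 1, 6, 1, 22, 19 and 0. The Gjc1 difference between K27M and control cells, by which the gene was chosen, ranged from 2.57 to 5.01 over these settings. Culture numbers were not used to pair the regions, as same-numbered cultures did not deviate together throughout (24 correlations over genes, median 0.087, from -0.13 to 0.38, 8 of them over 0.1, and 14 best with their own number). With the number as a replicate block shared by both regions in the culture sums, a fit added after seeing the data, the called pairs between regions stayed the same, 6 in control and 1 in K27M cells, and the adjusted p of Gjb1 was 0.060 or more. Levels under about 0.1 TPM rest on few counts, so differences of Gja4, Gja5, Gjb2 and Gjd2 are poorly resolved.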
